A study of Mus musculus with 9 samples.

Results

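The folding of secreted proteins in the endoplasmic reticulum (ER) of the liver, and the stress response that adjusts it, were followed through 36 genes, of 18193 genes measured on the array. They were taken by symbol from a list of known components: 16 lumenal chaperones and folding enzymes, 7 genes of the PERK–ATF4 branch, 7 genes of ER-associated degradation, the 3 genes Atf6, Ern1 and Xbp1 of the other signalling arms, and 3 genes of the translocation channel. All 36 were measured, and each gene is represented by its brightest probe set, a group of short probes against a single transcript. No measured value entered the choice of the list, although earlier results of these arrays were known when it was drawn up.

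Liver RNA came from 9 female C57BL/6J mice, 3 in each group, with 1 array per mouse. Amoxicillin mice had drunk amoxicillin at 0.167 mg/ml, meant to give 25 mg/kg/day, and tylosin mice had drunk tylosin at 0.333 mg/ml, meant to give 50 mg/kg/day. Both were given in 3 pulses, from day 10 to day 15, from day 28 to day 31 and from day 37 to day 40 of life, and control mice received no antibiotic. All groups were moved to a high-fat chow after the last pulse, so the controls are high-fat controls too, and the livers were taken months later. The mice were then 22 weeks old by the design text and 24 weeks old by the sample labels. Litter-mates shared a cage and a treatment, and the litter of each array is not given. The P-values therefore measure the spread between these samples, and litter and treatment cannot be told apart.

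Hepatocytes secrete most of the proteins of blood plasma, and these enter the ER through the Sec61 channel, are glycosylated, and are folded with the help of BiP (Hspa5), its DnaJ partners, calnexin and calreticulin, and the protein disulfide isomerases. When unfolded proteins accumulate, 3 sensors respond: ATF6 is cleaved in the Golgi to a transcription factor, IRE1 (Ern1) splices the Xbp1 transcript, and PERK (Eif2ak3) phosphorylates a translation initiation factor, which slows protein synthesis but favours translation of ATF4. ATF6 and spliced XBP1 drive chaperones and degradation factors, while ATF4 drives amino acid synthesis, CHOP (Ddit3) and the genes that end the response.

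The promoters of these genes were searched for the sites of the factors of each branch, which only part of the genes carried. ATF6 binds the ER stress response element, ERSE, whose letters are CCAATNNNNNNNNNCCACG. RefSeq promoters on GRCm38.p6 were found for 31 of the 36 genes (not for Atf6, Derl1, Hyou1, Manf and Sec61a1), and the 250 bases before the start were searched on both strands. An ERSE stood in 10 of these 31 promoters, 8 of them among 14 chaperones and 2 among 6 degradation genes, against 35 of 27025 genes (0.13%). The stretches below belong to genes whose values are described next, are written in the direction of transcription, and carry the match in capitals. A match that begins with CGTGG lies on the opposite strand.
Hspa5 (chr2:34772015-34772053, + strand): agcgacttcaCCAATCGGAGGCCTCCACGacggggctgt
Creld2 (chr15:88819510-88819548, + strand): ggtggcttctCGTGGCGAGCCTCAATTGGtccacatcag
Ero1b (chr13:12565672-12565710, + strand): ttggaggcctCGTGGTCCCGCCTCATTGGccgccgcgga
Dnajc3 (chr14:118937817-118937855, + strand): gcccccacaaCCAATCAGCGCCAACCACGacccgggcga
Derl3 (chr10:75893232-75893270, + strand): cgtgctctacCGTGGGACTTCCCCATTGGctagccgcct
Syvn1 (chr19:6046522-6046560, + strand): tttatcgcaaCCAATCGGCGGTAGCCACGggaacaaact

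None of the 7 PERK–ATF4 promoters held an ERSE. The ATF4 composite site, CARE, searched as TGATGNAA, stood in Asns, Chac1 and Herpud1, against 1056 of 27025 genes (3.91%). Herpud1 held in addition the only ERSE-II of the list, ATTGG followed after 1 base by CCACG, which 10 of 27025 genes (0.037%) carried. The core of the XBP1 site, TGACGTGG, was in none of the 31 promoters and in 163 of 27025 genes (0.603%). These stretches show the PERK–ATF4 letters beside those of the other arm, with the match in capitals.
Asns (chr6:7693215-7693242, - strand): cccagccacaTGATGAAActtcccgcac
Chac1 (chr2:119351039-119351066, + strand): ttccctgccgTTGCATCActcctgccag
Herpud1, CARE (chr8:94386307-94386334, + strand): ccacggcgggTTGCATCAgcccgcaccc
Herpud1, ERSE-II (chr8:94386367-94386397, + strand): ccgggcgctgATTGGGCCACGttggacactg

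Some arrays differed from the others of their group. For the chaperones, control replicate 1 lay far below control replicates 2 and 3, and the calls are also given with each control array left out. Control replicate 1 was also the lowest control for 8 of 8 macrophage markers, among them Marco at 5.81, against 8.26 and 7.14 in the other controls. Tylosin replicate 3 stood apart for the same markers, with Marco at 10.95, Adgre1 at 9.59 and Clec4f, a Kupffer cell receptor, at 7.50, while the mean over the list spanned 8.53 to 9.34 in control arrays, 8.55 to 9.46 in amoxicillin arrays and 8.79 to 9.63 in tylosin arrays. The part of these markers in the values below was not tested. Intestinal and smooth muscle genes stood high in replicate 1 of the amoxicillin and replicate 2 of the tylosin group: the mean of 12 gut mucosa genes was 4.36 to 4.42 in the controls but reached 6.53 and 6.26 in these arrays. Of 7 measured plasma and B cell genes, 5 were under 6 in every array, and Jchain and Ighm were not. Jchain was under 6 in every control but at 10.25 in amoxicillin replicate 1, 8.36 in tylosin replicate 2 and 6.90 in tylosin replicate 3. Ighm was at 7.07 to 8.17 in the controls and at 10.49 in tylosin replicate 3. The mean over this list was 4.31 to 4.70 in the controls and reached 5.28 with amoxicillin and 5.45 with tylosin. The part of these cells in the values below was not tested either. Hepatocyte markers (7 of 7 measured) had a mean of 13.74 to 13.93 in all 9 arrays. Of 10 markers of pancreatic acinar cells, which are rich in ER, 8 stayed under 6 on the log2 scale in every array. In such bulk RNA, fewer cells of a type and less RNA per cell cannot be told apart.

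Several lumenal chaperones were lower in the livers of amoxicillin mice, by 1.51-fold to 2.99-fold for the 4 called. A gene was called where limma gave a P under 0.01 before adjustment and the log2 fold change exceeded 0.5 in size, the limits the study's methods set. The 4 were Creld2, Manf, Hyou1 and Dnajb9, and 0.445% of all genes were called lower. With tylosin only Hyou1 was called among the chaperones, and 0.44% of all genes were lower. None of the 36 was called higher with either antibiotic, where 0.835% and 1.01% of all genes were. None passed the adjustment over 45037 probe sets, where the smallest limma adjusted p of any of the 36 genes was 0.216 with amoxicillin and 0.207 with tylosin. Before adjustment 10 of the 36 had a P under 0.05 with amoxicillin and 9 with tylosin, against 15.5% and 16.6% of all genes.

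Creld2, an ER-resident protein with disulfide isomerase activity, was at 8.89, 10.01 and 10.69 in the control arrays (log2 values, replicates 1 to 3). It was at 8.62, 7.92 and 8.32 with amoxicillin and at 8.33, 8.69 and 9.41 with tylosin. All amoxicillin arrays lay below all controls, while tylosin replicate 3 lay above control replicate 1. The log2 fold change was -1.58 with amoxicillin (SE 0.41, 95% interval -2.48 to -0.68, limma adjusted p = 0.216) and -1.06 with tylosin (SE 0.41, 95% interval -1.95 to -0.16, limma adjusted p = 0.281).

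Manf, a secreted protein released from stressed cells, was at 10.02, 10.93 and 11.30 in the controls, at 10.05, 9.61 and 9.49 with amoxicillin and at 9.70, 10.04 and 10.50 with tylosin. The ranges overlapped in both comparisons, because control replicate 1 was as low as the antibiotic arrays. Manf fell by 1.03 on the log2 scale with amoxicillin (SE 0.30, limma adjusted p = 0.238), and its value with tylosin was -0.67 (SE 0.30, limma adjusted p = 0.336).

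Hyou1, a large HSP70-type chaperone that also exchanges nucleotide on BiP, was the only member called with both antibiotics. It was at 9.04, 9.88 and 9.99 in the controls, at 9.03, 8.83 and 8.84 with amoxicillin and at 8.63, 8.85 and 9.15 with tylosin. The amoxicillin arrays were all below the controls, with 9.03 against 9.04 at the nearest pair, and tylosin replicate 3 overlapped control replicate 1. The log2 fold changes were -0.74 (limma adjusted p = 0.244) and -0.77 (limma adjusted p = 0.212), each with an SE of 0.22. Both comparisons use the same 3 control arrays.

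Dnajb9, a DnaJ protein that binds BiP and restrains IRE1, was at 10.60, 11.03 and 10.93 in the controls, at 10.57, 9.99 and 10.22 with amoxicillin and at 10.56, 10.80 and 10.60 with tylosin. Amoxicillin arrays did not overlap the controls, and tylosin arrays did. With amoxicillin it was lower by 1.51-fold, a log2 fold change of -0.59 (SE 0.16, limma adjusted p = 0.221), and with tylosin the value was -0.20 (SE 0.16).

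Hspa5, which encodes BiP, the central chaperone and the protein that holds the sensors inactive, was at 12.12, 12.79 and 12.99 in the controls. It was at 12.39, 12.25 and 12.15 with amoxicillin and at 12.25, 12.49 and 12.44 with tylosin. Its lowest array of all 9 was control replicate 1, and its highest were control replicates 2 and 3. The log2 fold change was -0.37 with amoxicillin (95% interval -0.79 to 0.047) and -0.24 with tylosin (95% interval -0.66 to 0.18), and it was called with neither.

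Of the other 11 chaperones, Sdf2l1, a partner of the DnaJ proteins, had the largest values, -1.20 with amoxicillin and -0.90 with tylosin, each with an SE of 0.54 and neither called. Its control arrays were at 6.996, 8.71 and 9.27. Ero1b was at -0.46 with amoxicillin and -0.52 with tylosin, each with an SE of 0.23, and was called with neither. Pdia4, a disulfide isomerase, was at -0.34 with amoxicillin and -0.40 with tylosin, where it met the limit on P but not that on fold, and it was the only gene of the 36 with all tylosin arrays below all controls (9.15% of all genes). Across the 16 chaperones the median log2 fold change was -0.36 with amoxicillin and -0.32 with tylosin, against -0.025 and -0.015 for all genes. It was negative for 15 of 16 in each comparison, the exceptions being Dnajc3 at 0.090 with amoxicillin and P4hb at 0.023 with tylosin.

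**Figure D1:**
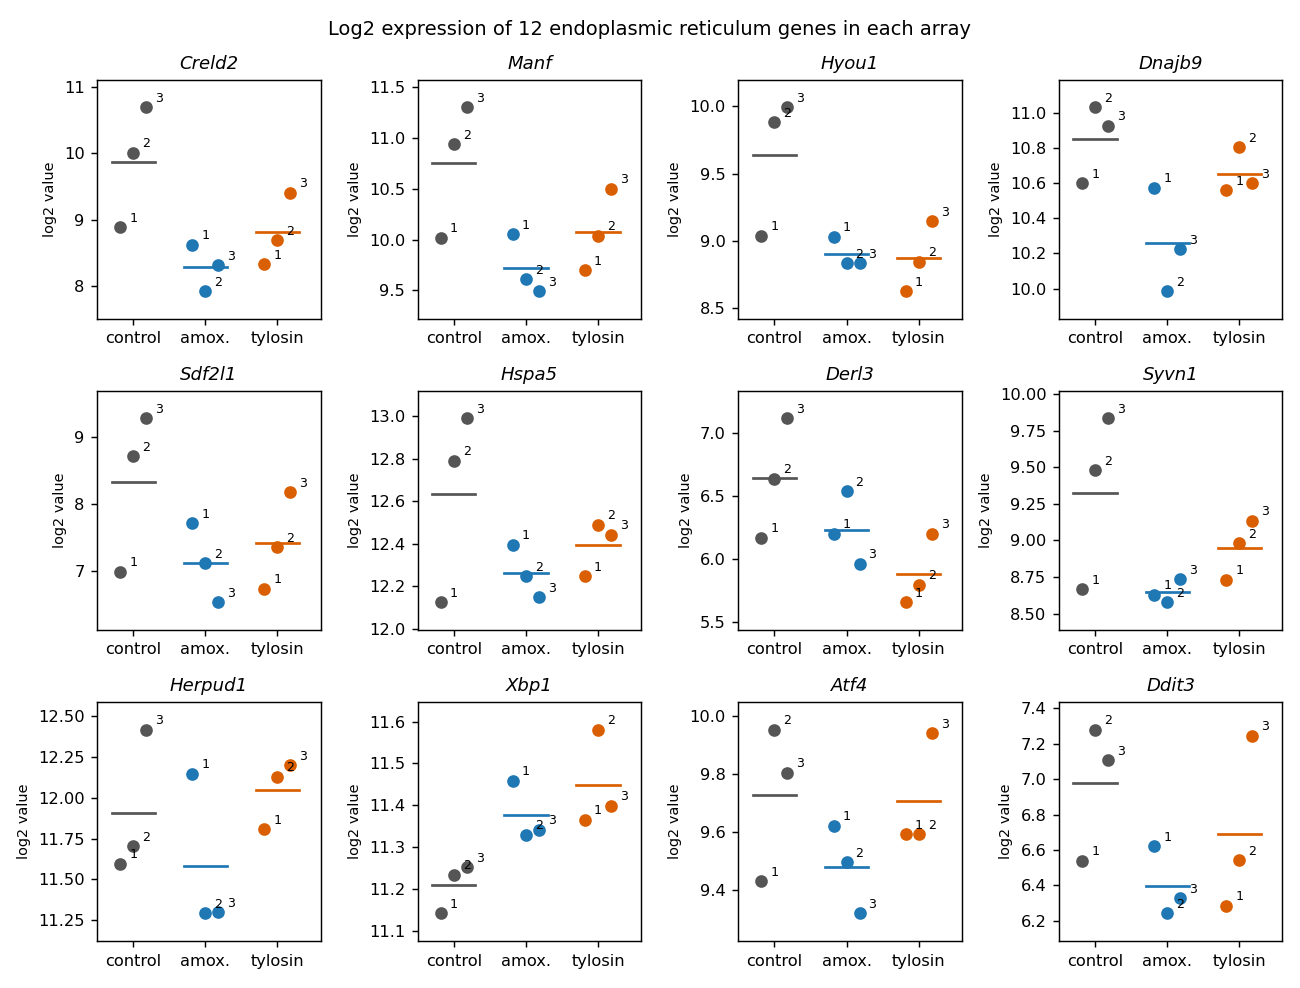
Log2 value (y axis, each panel with its own range) of 12 genes in the 9 arrays by group (x axis), with the replicate number beside each point and a line at the group mean. For Creld2, Manf, Sdf2l1, Hspa5 and Syvn1, control replicates 2 and 3 lie above all antibiotic arrays and control replicate 1 lies among or below them, while Xbp1 is higher in all 6 antibiotic arrays than in the controls.

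The control arrays disagreed about the chaperones more than about other genes. Control replicate 1 was the lowest control for 16 of 16 chaperones and 31 of 36 genes of the whole list, against 5280 of 18193 genes (29%). The median of control replicate 1 minus the mean of control replicates 2 and 3 was -0.73 for the chaperones and -0.46 for the 36 genes, against 0.014 for all genes. For Sdf2l1 that difference was -1.99, the lowest of all 18193 genes, and Creld2 ranked 9, Manf 21 and Syvn1 32 from the bottom. Of the 100 lowest genes by this difference, 10 were among the 36, and 9 of these were chaperones.

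Control replicates 2 and 3 both exceeded all 6 antibiotic arrays for 14 of 16 chaperones, the exceptions being Dnajc3 and P4hb, and did so for 1800 of 18193 genes. Control replicate 1 failed to exceed all amoxicillin arrays for 13 of 16, against 12108 of 18193 genes. This reading of the control arrays was made after their values were seen. The 3′ over 5′ signal of actin, a sign of RNA integrity, was 1.29 in control replicate 1, 1.39 and 1.40 in the other controls and 1.21 to 1.73 with the antibiotics (log2). That of Gapdh was 0.23 in control replicate 1, the lowest of all arrays, 0.40 and 0.43 in the other controls and 0.31 to 0.54 with the antibiotics.

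Without control replicate 1, 10 of the 36 genes were called lower with amoxicillin, against 0.753% of all genes, and 12 with tylosin, against 0.687%. This array was the lowest control for all 16 chaperones, so leaving it out lowers each of their fold changes, and the rise in calls is no test. Hspa5 was then called with amoxicillin (-0.63), Sdf2l1 was at -1.86 and -1.57, Creld2 at -2.07 and -1.54, Manf at -1.40 and -1.04, and Hyou1 at -1.04 and -1.06. None passed the adjustment there either, and limma's adjusted p was 0.151 for Creld2 and 0.147 for Hyou1 with amoxicillin. Without control replicate 2 none of the 36 was called lower with either antibiotic, against 0.676% and 0.632% of all genes, and none was without control replicate 3, against 0.445% and 0.489%. With amoxicillin and without control replicate 2, Hspa5 was at -0.29, Sdf2l1 at -1.01, Creld2 at -1.51, Manf at -0.94 and Hyou1 at -0.62. Before adjustment 7 of the 36 with amoxicillin and 5 with tylosin had a limma P under 0.05 without control replicate 2, against 14.1% and 15.0% of all genes. Without control replicate 3 these were 5 and 4, against 10.9% and 12.4%.

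The calls also changed when single antibiotic arrays were left out, while the fold changes of the called genes kept their sign. Across arrays left out, amoxicillin values ran from -2.07 to -1.16 for Creld2, -1.40 to -0.76 for Manf, -1.04 to -0.56 for Hyou1 and -0.75 to -0.45 for Dnajb9. Tylosin values ran from -1.06 to -0.59 for Hyou1 and -0.99 to -0.52 for Derl3. Without amoxicillin replicate 2 none of the 36 was called with amoxicillin, without amoxicillin replicate 3 only Creld2 was, and without tylosin replicate 1 or 2 none was with tylosin. Without tylosin replicate 2 the amoxicillin calls were 2, since the 3 groups share their estimate of the spread. With both arrays of high intestinal signal left out, Dnajb9 and Creld2 were called with amoxicillin and no gene with tylosin. The share of all genes called was not counted with antibiotic arrays left out, so these counts are no result about the 36 genes alone.

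**Figure D2:**
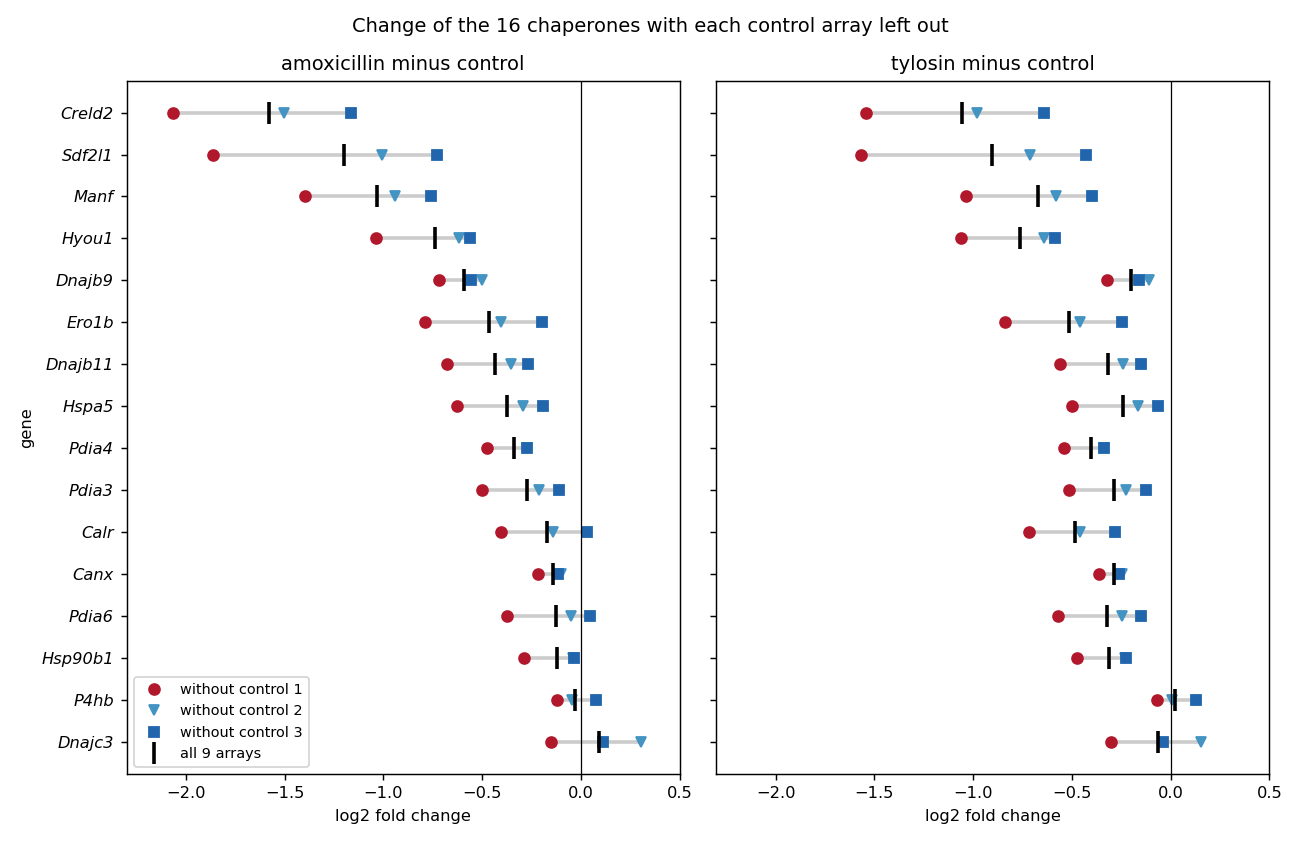
Log2 fold change against control (x axis) of the 16 chaperones (y axis) for amoxicillin (left) and tylosin (right), with all 9 arrays (bar) and with each control array left out (red, light blue and dark blue symbols). Values move away from 0 without control replicate 1 for all 16 with tylosin but P4hb, and Creld2 with amoxicillin runs from -2.07 to -1.16 across the control left out.

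With all 9 arrays no gene of the PERK–ATF4 branch was called with either antibiotic in limma, and 1 of 7 with amoxicillin and 0 with tylosin had a P under 0.05 before adjustment. Over the 7 genes the median log2 difference from control was -0.25 for amoxicillin and -0.12 for tylosin, negative for 5 and 7 of 7. Without control replicate 1 the medians were -0.40 and -0.17, and Ddit3 was called lower with amoxicillin. Across arrays left out the medians ran from -0.40 to -0.17 with amoxicillin and from -0.20 to -0.0037 with tylosin. Control replicates 2 and 3 exceeded all 6 antibiotic arrays for 1 of 7, where the chaperones had 14 of 16 and all genes 1800 of 18193. Taken by antibiotic, they exceeded all amoxicillin arrays for 4 of 7, against 14 of 16 chaperones and 3272 of 18193 genes. They exceeded all tylosin arrays for 1 of 7, against 15 of 16 chaperones and 2706 of 18193 genes. Eif2ak3, the PERK kinase, was at 7.004, 7.52 and 7.50 in the controls, 7.27, 6.47 and 6.94 with amoxicillin and 6.97, 7.32 and 7.33 with tylosin, with overlap in both comparisons and log2 fold changes of -0.45 (95% interval -0.91 to 0.0071) and -0.13.

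Atf4, the transcription factor of the branch, was at 9.43, 9.95 and 9.80 in the controls, 9.62, 9.50 and 9.32 with amoxicillin and 9.59, 9.59 and 9.94 with tylosin, for log2 fold changes of -0.25 and -0.021. Groups overlapped in both. ATF4 is regulated mainly in translation, which these arrays do not measure. Its second probe set with a value over 6 went the other way with amoxicillin, at 0.68 without being called, so the direction of Atf4 depends on the probe set.

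Ddit3, which encodes the death-associated factor CHOP, was at 6.54, 7.28 and 7.11 in the controls, 6.62, 6.24 and 6.33 with amoxicillin and 6.28, 6.54 and 7.25 with tylosin. It had the largest change of the branch with amoxicillin, -0.58 (SE 0.25, limma adjusted p = 0.32), and -0.29 with tylosin (SE 0.25), and control replicate 1 lay inside the amoxicillin range. Without that array it was at -0.80 (limma adjusted p = 0.257) and -0.50. Across arrays left out Ddit3 ran from -0.80 to -0.43 with amoxicillin and from -0.56 to -0.082 with tylosin. Asns, asparagine synthetase, was at -0.45 with amoxicillin, where its arrays, all under 6, did not overlap the controls, and at -0.00013 with tylosin. Chac1, which degrades glutathione, was at 0.062 and -0.15. Trib3, an inhibitor of ATF4 and CHOP, and Ppp1r15a, which reverses the action of PERK, ran from -0.12 to 0.021 over both comparisons.

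ER-associated degradation moves misfolded proteins back to the cytosol for the proteasome, and its 7 genes had values on both sides of 0. Their median log2 fold change was -0.33 (amoxicillin) and -0.048 (tylosin), with 4 of 7 negative in each. With amoxicillin the median moved to -0.071 without control replicate 3, and without control replicate 1 the medians were -0.48 and -0.068. Derl3, a channel component with an ERSE that belongs to the same family as Derl1 and Derl2, was the only one called with all 9 arrays, with tylosin. It was at 6.17, 6.64 and 7.11 in the controls, 6.20, 6.54 and 5.96 with amoxicillin and 5.66, 5.80 and 6.20 with tylosin. Tylosin replicate 3 just exceeded control replicate 1, and the log2 fold change was -0.75 with tylosin (SE 0.23, limma adjusted p = 0.225) and -0.41 with amoxicillin (SE 0.23). Without control replicate 1 the values were -0.99, still called, and -0.64, not called. Across arrays left out they ran from -0.99 to -0.52 with tylosin and from -0.64 to -0.17 with amoxicillin.

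Syvn1, the ubiquitin ligase HRD1 at the centre of the complex, had log2 fold changes of -0.68 with amoxicillin (SE 0.24, limma adjusted p = 0.27) and -0.38 with tylosin (SE 0.24), and its partner Sel1l had -0.35 and -0.26. Neither was called with all 9 arrays, although all amoxicillin arrays of Sel1l lay below the controls. Syvn1 was called lower with both without control replicate 1, at -1.01 (limma adjusted p = 0.147) and -0.71 (limma adjusted p = 0.183), where Sel1l was at -0.48 and -0.39 and not called. With amoxicillin and without control replicate 2, Syvn1 was at -0.60 and Sel1l at -0.35. A dimmer Syvn1 probe set was called with amoxicillin with all 9 arrays, at -0.90. Herpud1, which recruits the complex and is a target of both arms, was at 11.60, 11.70 and 12.42 in the controls, 12.15, 11.29 and 11.30 with amoxicillin and 11.81, 12.13 and 12.20 with tylosin. Its groups overlapped, at -0.33 and 0.14 (SE 0.26).

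Derl1, in contrast, was higher by its brightest probe set in every antibiotic array than in every control. It was at 0.24 with amoxicillin (limma adjusted p = 0.256) and 0.20 with tylosin (limma adjusted p = 0.287), and was called in neither. Its other probe sets ran from 0.029 to 0.046 with amoxicillin and from -0.11 to 0.070 with tylosin, so this rise rests on the brightest probe set. The mannosidase-like lectin Edem1 was at 0.13 and 0.081 and Derl2 at 0.00028 and -0.048. Unlike Derl3, Derl2 had no ERSE in its promoter. Of the 36 genes, 6 had all amoxicillin arrays below all controls, against 11.4% of all genes, and 3 had them all above, against 9.52%. For tylosin, 1 was below and 2 above, against 9.15% and 8.21%.

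Xbp1, the transcript that IRE1 splices, was called with neither antibiotic but was higher in all of their arrays than in the controls. It was at 11.14, 11.23 and 11.25 in the controls, 11.46, 11.33 and 11.34 with amoxicillin and 11.37, 11.58 and 11.40 with tylosin. The differences were 0.17 with amoxicillin (SE 0.091, limma adjusted p = 0.412) and 0.24 with tylosin (SE 0.091, limma adjusted p = 0.28). The mean of all Xbp1 probe sets gave -0.16 and -0.013, so the direction depends on the probe set. From the next brightest to the dimmest, the other probe sets were at -0.0022, -0.13 and -0.66 with amoxicillin. With tylosin they were at 0.20, -0.0091 and -0.48 in the same order. These values do not separate spliced from unspliced Xbp1.

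Atf6 was at 8.12, 8.20 and 8.30 in the controls, 8.11, 7.90 and 8.04 with amoxicillin and 8.14, 8.12 and 8.26 with tylosin. Its amoxicillin arrays were below the controls, with 8.11 against 8.12 at the nearest pair and a log2 fold change of -0.19 (SE 0.094), and its tylosin value was -0.034. Ern1 was at 8.39, 8.90 and 8.70, then 9.01, 8.74 and 8.80, then 8.77, 8.74 and 8.67 in the same order of groups, with overlap in both comparisons and log2 fold changes of 0.19 and 0.067. Without control replicate 1 Ern1 was at 0.055 and -0.069, Atf6 at -0.23 and -0.077 and Xbp1 at 0.13 and 0.21, and none of them was called.

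No translocation gene was called. Sec61a1, the pore of the channel, was at 10.13, 10.45 and 10.37 in the controls, 10.41, 10.37 and 10.45 with amoxicillin and 10.37, 10.33 and 10.40 with tylosin, for 0.098 (95% interval -0.12 to 0.31) and 0.055 (95% interval -0.16 to 0.27). Both intervals leave room for a change of either sign. The next brightest Sec61a1 probe set had the other sign, at -0.36 with amoxicillin and -0.24 with tylosin, and was not called. Its remaining probe sets ran from 0.048 to 0.36 with amoxicillin and from -0.0091 to 0.31 with tylosin. Sec61b, another channel subunit, and Ssr1, of the associated translocon complex, had log2 fold changes from -0.017 to 0.10 over both comparisons. Sec61a1 was at 0.0036 and -0.040 without control replicate 1, where no translocation gene was called.

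**Figure D3:**
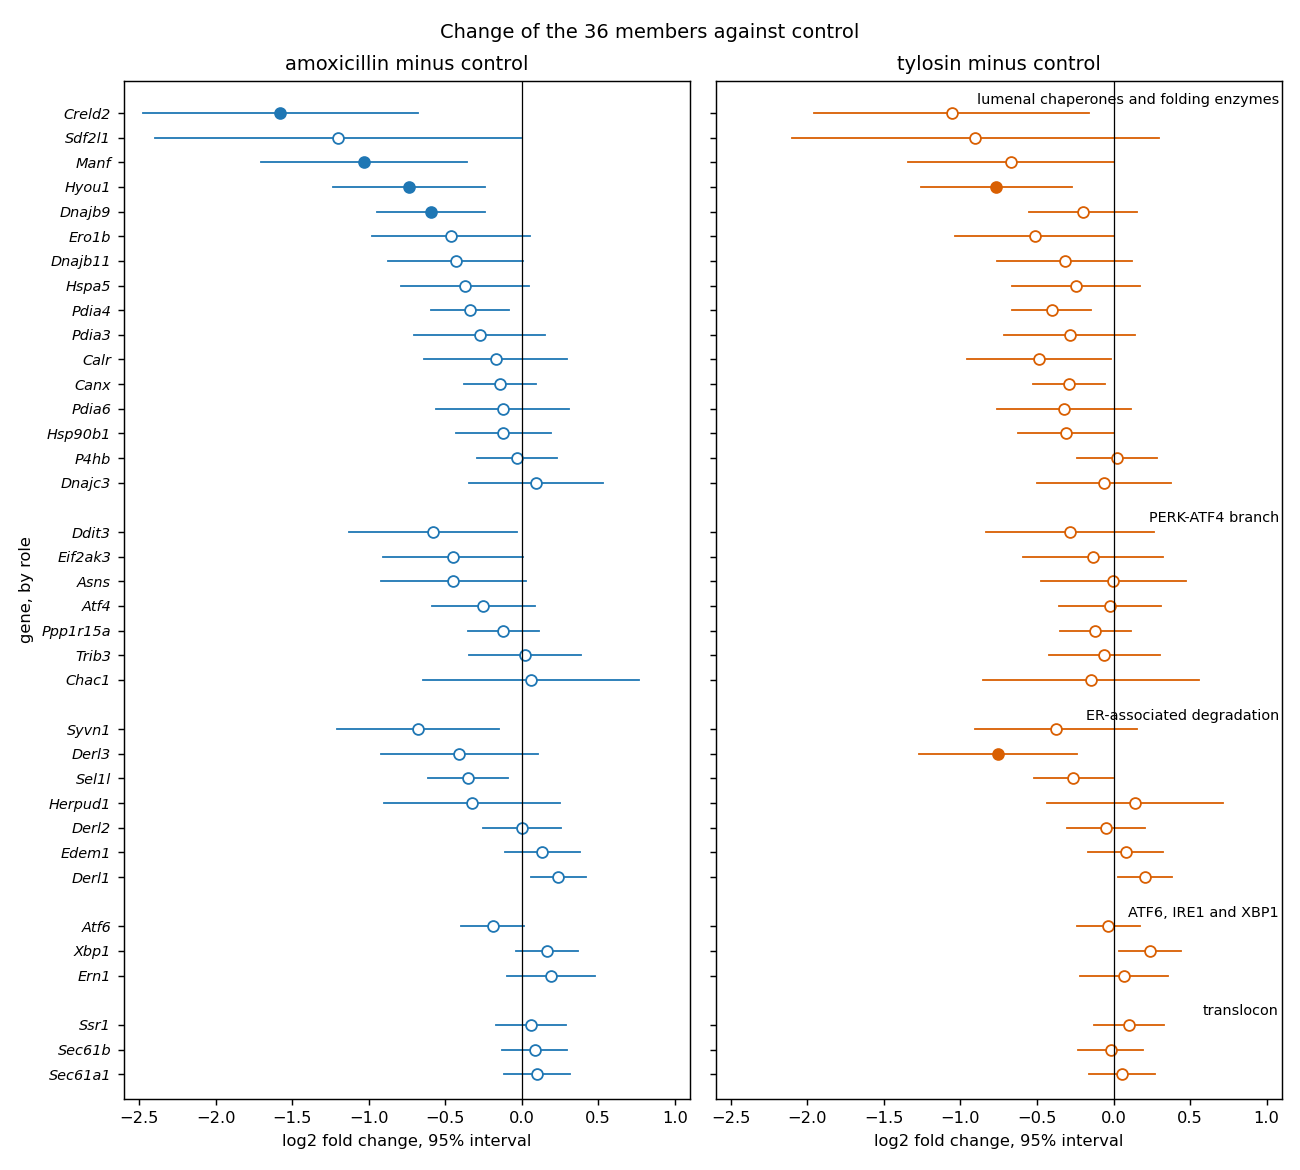
Log2 fold change against control with its 95% interval (x axis) for the 36 genes (y axis, by role), for amoxicillin (left) and tylosin (right), with filled points for genes called. Filled points are Creld2, Manf, Hyou1 and Dnajb9 with amoxicillin and Hyou1 and Derl3 with tylosin, and the signalling and translocation genes lie between -0.19 and 0.24.

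Read by array rather than by group, the chaperones lay above their 9-array mean in control replicates 2 and 3, by a mean of 0.47 and 0.65 over the 16 genes, and at -0.22 in control replicate 1. The amoxicillin arrays were at 0.0067, -0.22 and -0.30 and the tylosin arrays at -0.33, -0.14 and 0.089. For the PERK–ATF4 genes the highest array was tylosin replicate 3, at 0.30, ahead of control replicate 3 at 0.25. Degradation genes ran from -0.15 to 0.35, and the signalling and translocation genes from -0.19 to 0.12.

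**Figure D4:**
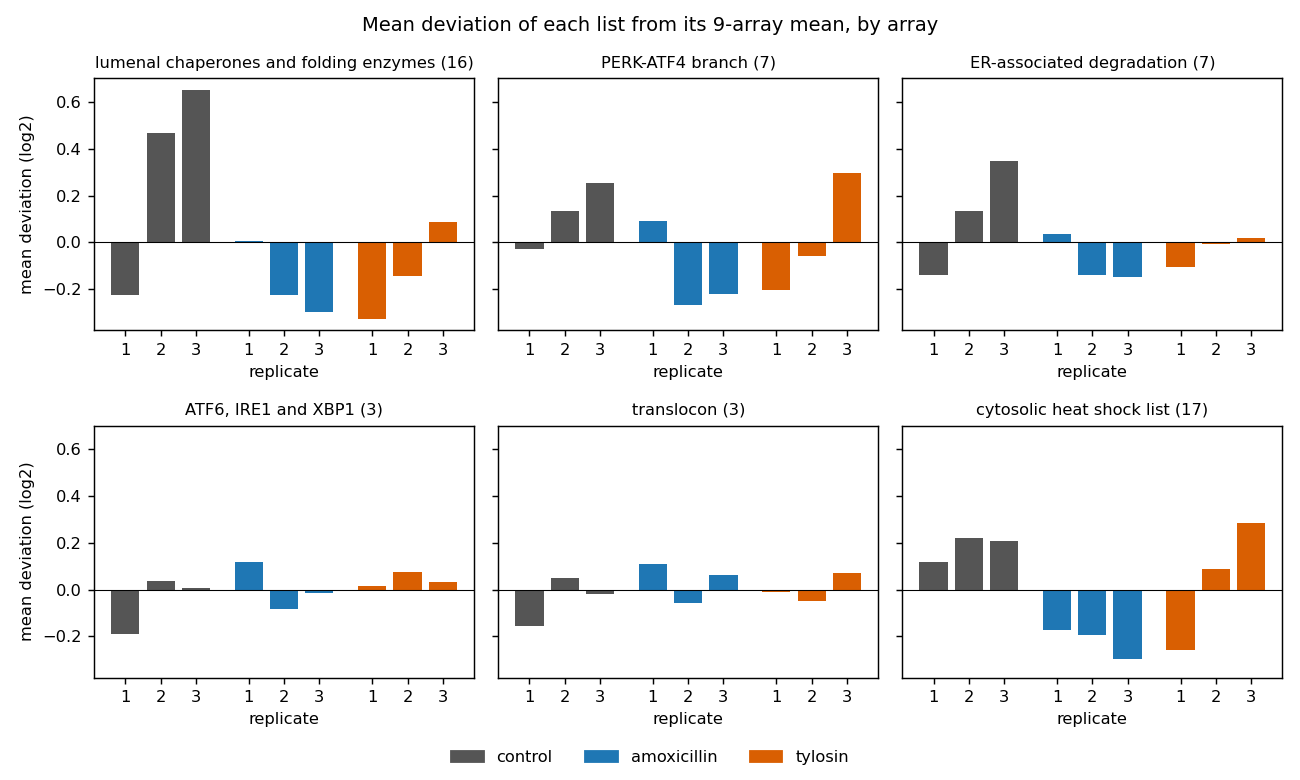
Mean deviation of each list from its 9-array mean (y axis, log2) in each array (x axis, replicates 1 to 3 of control, amoxicillin and tylosin), with the number of genes in each title. Control replicate 1 is at -0.22 for the chaperones, within the range of the antibiotic arrays, and at 0.12 for the cytosolic heat shock list, where the other controls are at 0.22 and 0.21 and tylosin replicates 2 and 3 at 0.090 and 0.28.

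Between tylosin and amoxicillin none of the 36 genes was called in limma, against 0.0715% of all genes called higher and 0.0385% lower, and 1 of 36 had an unadjusted P under 0.05, against 3.13% of genes. That gene was Dnajb9, higher with tylosin by 0.39 on the log2 scale (95% interval 0.042 to 0.74, limma adjusted p = 1). For Creld2 the difference was 0.52 (95% interval -0.38 to 1.42) and for Hspa5 0.13 (95% interval -0.29 to 0.55). All tylosin arrays lay above all amoxicillin arrays for 1 of the 36, against 3.58% of genes, and below them for 1, against 2.56%. Without amoxicillin replicate 1, Dnajb9 at 0.55 and Herpud1 at 0.75 were called higher with tylosin.

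The chaperones can also be divided by their promoters, as a description without a test. Median log2 differences from control were -0.16 for amoxicillin and -0.32 for tylosin over the 8 with the motif, and the 6 whose promoter lacked it had -0.39 and -0.30. Within the first set the values ran from -1.58 for Creld2 to 0.090 for Dnajc3 with amoxicillin. Of the genes called with amoxicillin, Hyou1 and Manf had no promoter to search, and Dnajb9 had a promoter without the motif.

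Most of the 36 genes had further probe sets, 53 beyond the brightest. With amoxicillin 39 of these had the sign of the brightest and 2 were called lower, and with tylosin 37 had that sign and 1 was called lower. A second Hyou1 probe set was called with both antibiotics, at -0.83 and -0.70. Creld2 and Manf have 1 probe set each on this array.

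Other genes of the same pathway had medians near 0. Of 131 further genes of folding, ATF4 signalling, degradation, sensors and translocation, 122 were measured. Their median log2 fold change was 0.0032 (amoxicillin) and 0.032 (tylosin). None was called lower, where 0.445% and 0.44% of all genes were, so few calls would be met among any 122 genes. Txndc11 and Creb3l2 were called lower with amoxicillin, and Eif2ak4 higher with tylosin, without control replicate 1. The 31 measured further folding genes, among them glycosidases, lectins and prolyl isomerases, had medians of -0.0014 and -0.027, with Txndc11 lowest with amoxicillin at -0.61 and Pdia5 with tylosin at -0.36. Control replicate 1 was the lowest control for 19 of these 31, against 16 of 16 chaperones.

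Mbtps2, the site-2 protease that releases ATF6 from the Golgi membrane and also cleaves the SREBP factors, was the only gene among these that was called with all 9 arrays, with both antibiotics. It was at 6.76, 6.61 and 6.25 in the controls, 6.98, 6.91 and 7.24 with amoxicillin and 7.29, 7.05 and 6.86 with tylosin, with no overlap. The log2 fold change was 0.50 (limma adjusted p = 0.246) and 0.53 (limma adjusted p = 0.212). Of all genes 0.835% and 1.01% were called higher in these comparisons. Without control replicate 1 Mbtps2 was at 0.61 and 0.64 and called in both. Without control replicate 2 it was called in neither, and without control replicate 3 it was at 0.36 and 0.38 and called in neither. Elsewhere the largest values were 0.58 and 0.83 for Ddit4, an ATF4 target that restrains mTORC1, 0.34 and 0.34 for the deglycosylase Ngly1, 0.33 with amoxicillin for Sec11c of the signal peptidase and 0.26 with tylosin for Srp19 of the signal recognition particle.

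The cytosolic heat shock list, which answers to HSF1 and lies outside the ER, had a median of -0.37 with amoxicillin and -0.17 with tylosin over 17 measured genes. With amoxicillin 3 were called lower, Hspa1b at -1.59, Hspb1 at -1.13 and Hsph1 at -0.74, against 0.445% of all genes. With tylosin only Hspb1 was, at -1.22, against 0.44%. All amoxicillin arrays lay below all controls for 11 of the 17, against 11.4% of all genes, and above them for 1, against 9.52%. For tylosin these counts were 2 and 2, against 9.15% and 8.21%. Without control replicate 1, 5 were called lower with amoxicillin, against 0.753% of all genes. Among them were Hspa1b at -1.60 and Hspb1 at -1.28 but not Hsph1 at -0.82, and Cryab was called higher. With tylosin Hspb1 at -1.38 and Stip1 were then called lower, against 0.687% of all genes. As a mean deviation over the list, control replicate 1 was at 0.12, the other controls at 0.22 and 0.21, the amoxicillin arrays at -0.17 to -0.30 and the tylosin arrays at -0.26 to 0.28. Control replicate 1 was the lowest control for 10 of the 17.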

How the data were processed

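Liver RNA of 9 mice was labelled and hybridized to Affymetrix mouse genome arrays. The deposited values are log2 expression that the authors obtained with RMA (affy package), whose versions the sources used here do not give. RMA sets the arrays to 1 distribution, so a change common to most genes would not show. Of 45101 probe sets, 64 manufacturer controls were left out. Of the rest 34945 carried 1 gene symbol, 932 several and 9160 none, and the brightest probe set by mean over 9 arrays stood for each of 18193 genes.

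The 3 contrasts came from 1 limma fit of all 9 arrays (version 3.58.1, R 4.3.3), with no filter on dim probe sets and Benjamini-Hochberg adjustment over 45037 probe sets. The tool and the thresholds (P under 0.01, absolute log2 fold change over 0.5) follow the study's methods, and the joint fit was chosen here. The precision is limited by 3 arrays a group. The fit was tested on simulated data. Among 9 pairs of arrays with the same replicate number 2 had residuals correlated over 0.1, so the numbers were not used to pair them.

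The members and gene lists were chosen with earlier results of these data known, so counts and medians over lists carry no test. Of 244 list genes 230 were measured. Genes given array by array were those past the thresholds in any comparison and Hspa5, Creld2, Xbp1, Atf6, Ern1, Eif2ak3, Atf4, Ddit3, Herpud1 and Sec61a1, with the 2 largest changes of each role and, of further pathway genes, those called and the largest of each list. Cell type markers were used as levels only. Alternatives were calls by the adjusted p or above a log2 fold change of 1, array weights, quantile normalization, median centring, a robust trended variance, removal of dim probe sets (unless log2 over 6 in 3 arrays), only the groups compared, the mean of all probe sets, a replicate block and each array left out. The joint omission of amoxicillin replicate 1 and tylosin replicate 2 was added after the data were seen. Figures were drawn with matplotlib 3.10.9.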

Additional observations from a re-analysis of the deposited data

Results flagged for a closer look

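The effects of the antibiotics against control differed, by the test of tylosin against amoxicillin at the unadjusted thresholds, for 3 genes of the cytosolic heat shock list and for none of the ER genes. Hspa1b, an inducible HSP70 of the cytosol, was at 11.25, 11.28 and 11.29 in the controls, 9.74, 9.66 and 9.67 with amoxicillin and 9.85, 11.26 and 11.74 with tylosin, a difference of 1.26 between the antibiotics. Tylosin replicate 1 lay with the amoxicillin arrays and the other tylosin arrays with the controls. Hspa1a differed by 1.22 and the co-chaperone Bag3 by 0.53. Hspa1a and Hspa1b transcripts are nearly identical, so their probe sets may share signal. The limma adjusted p was 1 for all 3. Without tylosin replicate 3 the differences were 0.87 for Hspa1b, 0.78 for Hspa1a and 0.41 for Bag3, and none passed.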

How the results depend on the processing

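With all 9 arrays 4 of the 36 genes were called with amoxicillin and 2 with tylosin. The amoxicillin count fell to 0 by the adjusted p and to 2 with a log2 fold change over 1, with a trended and robust variance, or with amoxicillin replicate 1 and tylosin replicate 2 left out. It was 3 with dim probe sets left out, median centring or only the 2 groups compared, each without Hyou1. The tylosin count fell to 0 by the adjusted p, with a log2 fold change over 1, with only the 2 groups compared, or with those 2 arrays left out, and to 1 without dim probe sets, with the mean of all probe sets or with median centring. Leaving out each array gave 0 to 10 calls with amoxicillin, 0 to 12 with tylosin and 0 to 2 between the antibiotics, and a median for the degradation genes with amoxicillin of -0.48 to -0.071. With a replicate block, 5 genes were called with amoxicillin (Syvn1 joined the 4), 2 with tylosin and 0 between the antibiotics. The filter on dim probe sets left Asns and Trib3 untested. The share of all genes called was counted only with all 9 arrays and with each control array left out.

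Changes of sign were followed for the genes given array by array, and the values that changed were all uncalled and mostly near 0. Other genes changed sign too, such as Dnajc3 with amoxicillin, at 0.090 with all 9 arrays and -0.15 without control replicate 1. With the mean of all probe sets, Xbp1 was at -0.16 with amoxicillin and -0.013 with tylosin, Atf4 at 0.090 with amoxicillin, Atf6 at 0.045 and Ddit3 at 0.014 with tylosin, and Atf4 at -0.13, Sec61a1 at 0.018 and Hyou1 at 0.15 between the antibiotics. Tylosin values became 0.017 for Atf6 and 0.030 for Atf4 with median centring, -0.00774 for Ern1 with quantile normalization, and 0.037 for Atf4 without both intestinal-signal arrays, where Hyou1 between the antibiotics was 0.052. Across arrays left out, tylosin values ran from -0.17 to 0.091 for Atf4, -0.077 to 0.013 for Atf6, -0.069 to 0.18 for Ern1, -0.015 to 0.40 for Herpud1 and -0.040 to 0.12 for Sec61a1, and Hyou1 between the antibiotics from -0.16 to 0.095. The cause of these changes was not tested. The number of arrays, 3 a group, limits the precision.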
